A study of Bos taurus with 16 samples.

Results

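Genes linked to inflammation of the joint, namely MMP3 (ENSBTAG00000037768), TNFAIP6 (ENSBTAG00000007239), PI3 (ENSBTAG00000039028) and IL33 (ENSBTAG00000018347), were followed across bovine superficial zone articular chondrocytes in which the transcription factor Creb5 was knocked down. They are 4 of the 19454 genes of the count table, were chosen by name with earlier results of these libraries known, and stand near the top of at least 1 of the 2 knockdown comparisons. The effect of shCreb5 on them is therefore given as a description, with no test, and the response to TGFβ2 is given with the test across all genes, although it too could be seen when the genes were chosen. The cells came from the knee cartilage of 4 calves of 1 to 2 weeks of age and had been infected with a lentivirus for a scrambled control (shScramble) or for an shRNA targeting Creb5 (shCreb5) and selected for 5 days at 0.8 µg/ml puromycin. Each population was then kept on low attachment plates in serum-containing medium for 2 days. Condition A contained the EGFR ligand TGFα at 100 ng/ml, and condition AB contained TGFβ2 at 20 ng/ml in addition, so that all groups received TGFα and no group received an inflammatory cytokine. RNA was sequenced once per calf in each of the 4 groups, giving 16 libraries. The labels name 1 shRNA against Creb5, so an effect of Creb5 loss and of that shRNA sequence cannot be told apart.

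The 4 genes act at different steps of inflammatory tissue turnover. MMP3 (stromelysin-1) is a secreted metalloprotease that degrades proteoglycans and activates procollagenases, and is known from osteoarthritic cartilage. TNFAIP6 encodes TSG-6, a secreted protein that binds hyaluronan and transfers heavy chains of inter-α-inhibitor onto it. PI3 encodes elafin, an inhibitor of neutrophil elastase and proteinase 3, and IL33 encodes a nuclear cytokine of the interleukin-1 family that is released from damaged cells and binds the receptor IL1RL1.

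The libraries held 14710867 to 21853634 counts, with a median of 19721435. CREB5, the gene targeted, was lower in the shCreb5 library of every calf (4 of 4, in either condition). Its level in condition A was 123.9, 71.4, 77.8 and 104.7 CPM (counts scaled to a common library size) for calves 1 to 4 with shScramble and 86.1, 44.7, 57.7 and 72.6 CPM with shCreb5, a log2 fold change of -0.54 (SE 0.08). In condition AB it was 83.0, 59.0, 62.7 and 78.7 CPM with shScramble and 43.0, 36.2, 31.1 and 34.9 CPM with shCreb5, a log2 fold change of -0.96 (SE 0.10), so CREB5 RNA was reduced and not removed. Of the chondrocyte markers COL11A1 and HAPLN1 could be looked up, 2 of 8 listed, and their summed level lay between 1901 and 22319 CPM in every library. The superficial zone marker PRG4 (lubricin) was between 2464 and 58499 CPM. In bulk libraries, fewer cells of a type and less RNA per cell cannot be told apart.

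MMP3 RNA was abundant in all libraries and lower in the shCreb5 cells of every calf in both conditions. In condition A it stood at 69.6, 165.0, 137.0 and 136.0 CPM in shScramble cells of calves 1 to 4 and at 44.0, 59.9, 96.2 and 44.6 CPM in shCreb5 cells. In condition AB it stood at 69.4, 199.5, 181.7 and 176.6 CPM in shScramble cells and at 37.0, 65.1, 75.6 and 57.4 CPM in shCreb5 cells. Calf 1 had the lowest MMP3 level of the 4 calves in each group, and because its shScramble value fell among the shCreb5 values of the other calves the groups overlapped in both conditions, while within each calf the shCreb5 value was the lower. The log2 fold change with shCreb5 was -1.06 (SE 0.20) in condition A, with values of -0.66, -1.46, -0.51 and -1.61 for calves 1 to 4. It was -1.36 (SE 0.14) in condition AB, with values of -0.91, -1.61, -1.26 and -1.62. The reduction was thus seen with and without TGFβ2, with group means of 61.2 ± 24.5 against 126.9 ± 40.5 CPM and 58.8 ± 16.3 against 156.8 ± 59.1 CPM (SD, n = 4).

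TGFβ2 did not move MMP3 past the threshold in either cell population. In shScramble cells the log2 fold change of condition AB against condition A was 0.26 (SE 0.10, 95% interval 0.027 to 0.50, before adjustment), with a higher value in 3 of 4 calves and an edgeR quasi-likelihood adjusted p of 0.111. In shCreb5 cells it was -0.034 (SE 0.13, 95% interval -0.33 to 0.26) with an adjusted p of 0.864 by the same test, and 2 of 4 calves were higher. The sign of the shCreb5 value turned when calf 1 (0.035) or calf 3 (0.070) was left out. In order of mean level, the shScramble groups stood above the shCreb5 groups, and the 2 groups of each shRNA, which differ only by TGFβ2, lay within their spread of each other.

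Of the 4 genes, TNFAIP6 had the largest fitted change with TGFβ2. Without it, TNFAIP6 was low, at 0.602, 3.61, 5.74 and 4.33 CPM (15, 75, 110 and 96 counts) in shScramble cells of calves 1 to 4 and 0.874, 2.49, 2.60 and 0.723 CPM (19, 53, 48 and 16 counts) in shCreb5 cells. With TGFβ2 it reached 210.9, 30.5, 164.4 and 214.3 CPM in shScramble cells. The shCreb5 cells reached 32.4, 12.3, 69.7 and 40.8 CPM. Every library with TGFβ2 lay above every library without it, for each shRNA, and calf 2 had the lowest level under TGFβ2 with both.

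The log2 fold change of TNFAIP6 with TGFβ2 was 5.28 (SE 0.66) in shScramble cells, with an edgeR quasi-likelihood adjusted p of 0.00154 and a rise in 4 of 4 calves. The rise was 350-fold in calf 1, where the starting count was 15, and 8.45-fold, 28.7-fold and 49.5-fold in calves 2 to 4. In shCreb5 cells the log2 fold change was 4.41 (SE 0.49), the adjusted p was 0.00119 by the same test, and the rises of calves 1 to 4 were 37.0-fold, 4.94-fold, 26.8-fold and 56.5-fold. TNFAIP6 ranked 5 from the top among 12879 genes ordered by log2 fold change in shScramble cells, and 5 among 12769 in shCreb5 cells. The size of the rise depended on single calves: in shScramble cells it was 4.61 without calf 1 and 5.99 without calf 2, and in shCreb5 cells it was 5.16 without calf 2, all on the log2 scale.

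**Figure D1:**
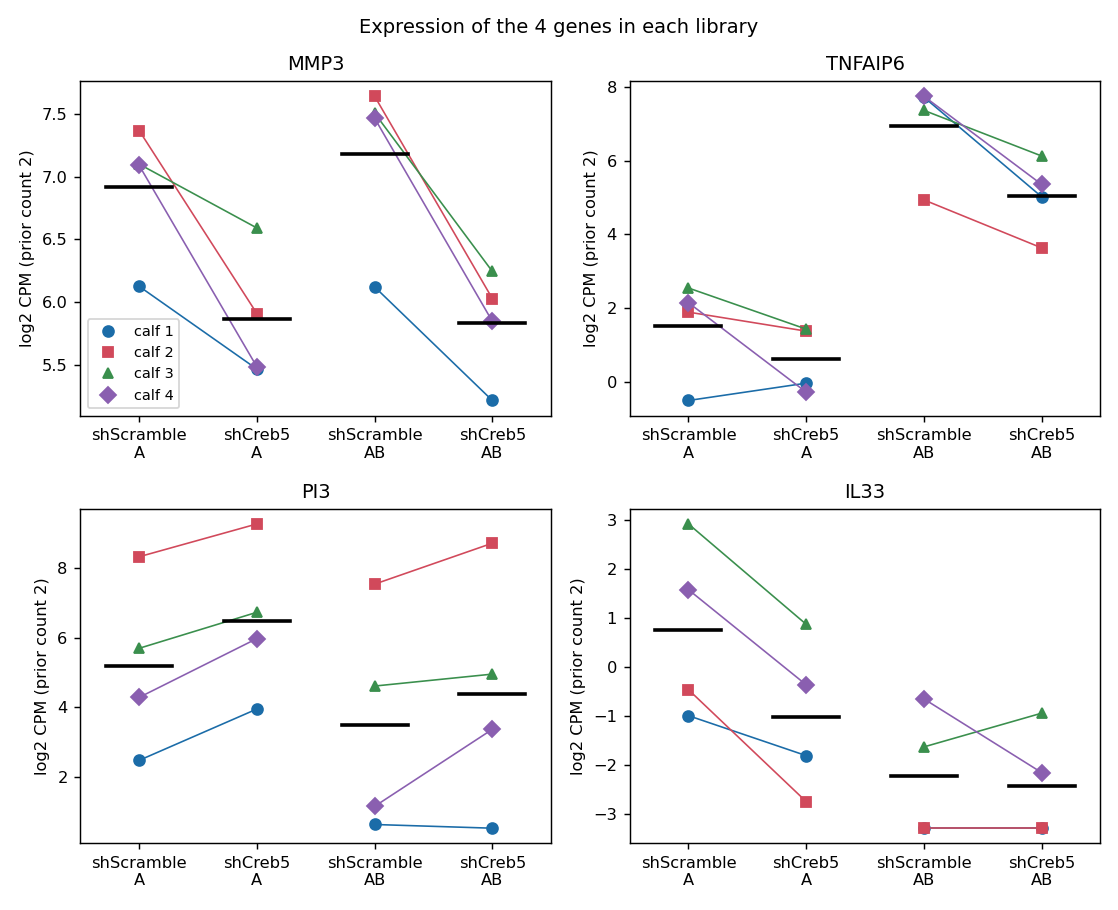
Level of each gene in every library, as log2 CPM with a prior count of 2 on the y axis, by shRNA and condition on the x axis; points are calves, thin lines join the same calf within a condition and thick bars are means over 4 calves. TNFAIP6 is high only in condition AB in these libraries, PI3 falls in the order of calves 2, 3, 4 and 1 in every group, and in condition AB the IL33 points of calves 1 and 2 lie on top of each other at 0 counts.

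The level that TNFAIP6 reached under TGFβ2 was lower with shCreb5. In condition AB the log2 fold change with shCreb5 was -1.92 (SE 0.27), with values of -2.70, -1.30, -1.24 and -2.39 for calves 1 to 4 and group means of 38.8 ± 23.8 against 155.0 ± 86.1 CPM (SD, n = 4). The groups overlapped only through calf 2, whose shScramble level of 30.5 CPM was below 3 of the 4 shCreb5 levels. In condition A the log2 fold change was -1.0 (SE 0.43), with values of 0.47, -0.52, -1.11 and -2.42, so that calf 1 moved the other way on 19 against 15 counts. Without calf 4 the condition A value was -0.54. The difference between the shRNA effects of the 2 conditions was -1.05 (SE 0.91) on the log2 scale, with values of -3.17, -0.79, -0.12 and 0.04 for the calves, and it rested mostly on calf 1, without which it was -0.55.

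PI3 differed from the other genes in being higher with shCreb5, and like IL33 it was lower with TGFβ2. Its level in condition A was 5.50, 318.1, 51.6 and 19.4 CPM in shScramble cells of calves 1 to 4. It was 15.4, 609.8, 105.6 and 62.6 CPM in shCreb5 cells. All 4 calves were higher with shCreb5, but the spread between calves was far larger than the shift, and the groups overlapped. In condition AB the levels were 1.47, 184.7, 24.4 and 2.15 CPM in shScramble cells and 1.36, 416.1, 30.9 and 10.3 CPM in shCreb5 cells, again with calf 2 far above the others.

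The log2 fold change of PI3 with shCreb5 was 1.27 (SE 0.14) in condition A, with values of 1.47, 0.94, 1.03 and 1.68 for calves 1 to 4. In condition AB it was 0.95 (SE 0.31), with values of -0.11, 1.17, 0.34 and 2.21, so that 3 of 4 calves were higher and calf 1 was not, on 24 against 31 counts. The difference between the conditions was -0.48 (SE 0.56), with 2 calves on each side of 0. No direction can be read from it.

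With TGFβ2, PI3 fell in all calves of both populations. The log2 fold change was -1.52 (SE 0.32) in shScramble cells, with an edgeR quasi-likelihood adjusted p of 0.0139, and the falls of calves 1 to 4 were 3.75-fold, 1.72-fold, 2.12-fold and 9.06-fold. In shCreb5 cells it was -1.90 (SE 0.38), with an adjusted p of 0.00925 by the same test and falls of 11.4-fold, 1.47-fold, 3.42-fold and 6.10-fold. The fall was smallest in calf 2, which had the highest level, and the groups overlapped in both populations. The calls rested on comparing libraries of the same calf: with no replicate block the adjusted p was 0.838 and 0.835. In shCreb5 cells the call was also lost without calf 4, at a log2 fold change of -1.65 and an adjusted p of 0.0540 by edgeR.

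The spread of PI3 between calves was itself among the widest of all genes. The highest calf exceeded the lowest by 57.8-fold in shScramble cells and 39.6-fold in shCreb5 cells in condition A. In condition AB the same ratios were 126-fold and 307-fold. The SD of log2 CPM over the 4 calves was 2.46 for PI3 in shScramble cells of condition A, against a median of 0.335 over 13372 genes, and 99.5% of genes had a smaller SD. In the other groups the share of genes with a smaller SD was between 99.2% and 99.9%. IL33 and TNFAIP6 also varied widely between calves, with 93.5% to 98.7% and 88.4% to 97.2% of genes having a smaller SD across the 4 groups. MMP3 lay much closer to the bulk of genes, at 63.4% to 86.9%.

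Some markers of other cell types moved with PI3 in some of the comparisons, and others did not or moved the opposite way. CDH1, an epithelial cadherin and the only one of 4 epithelial markers that could be looked up, lay between 0.192 and 1.51 CPM in shScramble cells and 0.235 and 12.2 CPM in shCreb5 cells of condition A, and between 0.268 and 0.426 CPM and 0.162 and 1.19 CPM in condition AB. VWF, the only one of 4 endothelial markers at hand, lay between 4.15 and 9.96 CPM and 8.31 and 19.5 CPM in condition A and between 2.82 and 5.01 CPM and 2.52 and 5.08 CPM in condition AB, for shScramble and shCreb5. The summed level of CD14 and CD68, 2 of 6 macrophage markers, lay between 22.7 and 41.7 CPM and 24.0 and 92.7 CPM in condition A and between 14.6 and 34.2 CPM and 12.2 and 30.4 CPM in condition AB.

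With TGFβ2, VWF fell, at a log2 fold change of -0.89 in shScramble and -1.60 in shCreb5 cells (adjusted p of 0.00773 and 0.00201 by edgeR), as did CD68, at -0.90 and -1.80 (0.0194 and 0.00423). CD14 was at 0.072 and -0.38 and was not called (0.836 and 0.122). CDH1 was at -1.75 in shCreb5 cells and was not called (0.0602 by edgeR), with 1 calf higher. It had no fitted value in shScramble cells, where 2 calves were higher. With shCreb5 in condition A, CDH1 was at 1.81, VWF at 0.72, CD68 at 0.86 and CD14 at 0.080, beside 1.27 for PI3. CDH1, VWF and CD68 were lower with shCreb5 in 0 of 4 calves there, and CD14 in 2. The highest levels of CDH1, VWF and CD68 in any library (12.2, 19.5 and 71.7 CPM) were all in the shCreb5 library of calf 3 in condition A. That library also enters the TGFβ2 comparison in shCreb5 cells. In condition AB, VWF was at -0.013, CD68 at 0.0082 and CD14 at -0.38, beside 0.95 for PI3, and CDH1 had no fitted value. The fibroblast and synovial lining markers THY1 and COL3A1, 2 of 5 listed, went the other way from PI3 with TGFβ2 and the same way as TNFAIP6. THY1 rose at 1.43 and 1.08 (0.000330 and 0.00118 by edgeR) and COL3A1 at 1.18 and 1.17 (0.00356 and 0.000823), and their summed level lay between 3194 and 5446 CPM and 2715 and 4336 CPM in condition A and between 7868 and 10081 CPM and 5026 and 10459 CPM in condition AB, for shScramble and shCreb5. With shCreb5, THY1 was at 1.08 in condition A and 0.72 in condition AB, and COL3A1 at -0.27 and -0.28. None of these markers was at 0 in any library. Their part in the levels of PI3 and of the other genes was not tested, and none of the 4 neutrophil markers could be looked up.

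IL33 was the least detected of the genes, and its counts carry the largest counting error. In condition A it had 10, 13, 143 and 64 counts in shScramble cells of calves 1 to 4 (0.402, 0.625, 7.46 and 2.89 CPM). In shCreb5 cells it had 4, 1, 32 and 15 counts (0.184, 0.0470, 1.73 and 0.677 CPM). In condition AB it had 0, 0, 4 and 8 counts in shScramble cells and 0, 0, 6 and 2 counts in shCreb5 cells. IL33 was thus mainly a condition A transcript in these libraries, most of it from calves 3 and 4, and TGFβ2 left at most 8 counts in any library.

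The log2 fold change of IL33 with shCreb5 in condition A was -2.09 (SE 0.32), with values of -0.81, -2.28, -2.04 and -1.94 for calves 1 to 4. Over the 4 calves, 230 counts with shScramble stood against 52 with shCreb5, which after scaling for library size was 4.25-fold lower (exact binomial 95% interval 3.13 to 5.86, counting error only). In condition AB the sums were 12 and 8 counts, a ratio of shCreb5 to shScramble of 0.732 with an interval of 0.259 to 1.95, so a difference was not detectable at this depth. The difference between the shRNA effects was 1.58 (SE 0.97) on the log2 scale, 0.37 without calf 3 and 2.92 without calf 4.

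IL33 was lower with TGFβ2 in 4 of 4 calves of shScramble cells. The counts of all 4 calves together fell from 230 to 12, which was 16.1-fold lower (exact binomial 95% interval 9.07 to 31.7, counting error only). Calves 1 and 2 had 0 counts with TGFβ2. Against a floor of 3 counts per library they were 2.83-fold and 4.0-fold lower or more, with their 10 and 13 condition A counts taken as exact. Calf 3 was 33.7-fold and calf 4 5.38-fold lower. The fitted log2 fold change was -3.90 (SE 0.57), with an edgeR quasi-likelihood adjusted p of 0.00293, and it was -3.16 without calf 3 and -5.20 without calf 4. The call was lost with no replicate block, at an adjusted p of 0.165. IL33 passed the filter on low counts mainly through its condition A libraries, so a difference between the conditions was in part a condition of being tested, and its call is given as a description.

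In shCreb5 cells, where IL33 started lower, the summed counts fell from 52 to 8, which was 5.19-fold lower with an exact binomial 95% interval of 2.45 to 12.7. It did not pass the filter there and was not tested in the fit used for the other genes. In a fit with no filter the log2 fold change was -2.34 with an adjusted p of 0.0273 by edgeR.

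**Figure D2:**
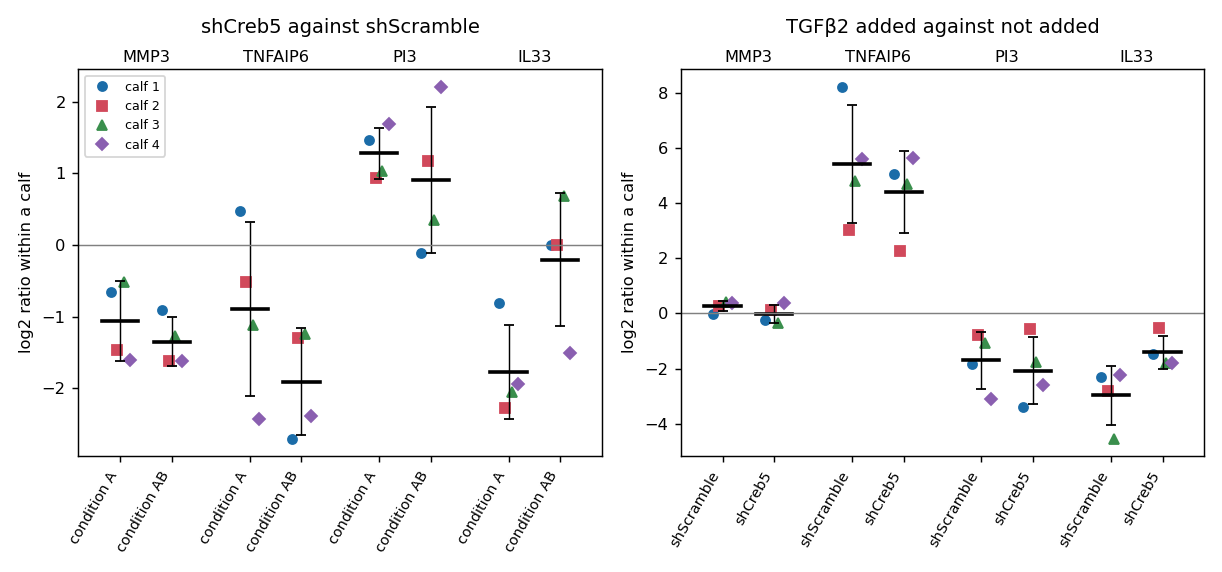
Log2 ratios within each calf for the 4 genes on the x axis, shCreb5 against shScramble by condition (left) and TGFβ2 added against not added by shRNA (right), from log2 CPM with a prior count of 2; points are calves, thick bars are means and error bars are SD over 4 calves. MMP3 lies below 0 for every calf on the left and near 0 on the right, TNFAIP6 lies above 0 and PI3 below 0 for every calf on the right, and for IL33, with as few as 0 counts, the ratios are drawn toward 0 by the prior count.

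Read side by side, the genes had different combinations of the 2 effects, in comparisons that share libraries. MMP3 was lower with shCreb5 and showed no called response to TGFβ2. TNFAIP6 was raised by TGFβ2 and lower with shCreb5, in 3 of 4 calves in condition A and 4 of 4 in condition AB. PI3 was lowered by TGFβ2 and higher with shCreb5, in 4 of 4 calves in condition A and 3 of 4 in condition AB. IL33 was lowered by TGFβ2 and, in condition A, lower with shCreb5.

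For the knockdown, which chose the genes, the counts are given with no reading. By edgeR's quasi-likelihood test with an adjusted p under 0.05, 0 of 12922 genes tested in condition A and 0 of 12664 in condition AB were called (0% in each), with 1144 and 1078 genes at an unadjusted p under 0.05, and none of the 4 genes was among those called. DESeq2 called 0.631% of genes in condition A, among them MMP3, PI3 and IL33, and 0.417% in condition AB, among them MMP3 and TNFAIP6. In condition A, 8.5% of genes were lower in all 4 calves, with MMP3 and IL33 among them, and 9.75% were higher, with PI3. In condition AB the shares were 9.17%, with MMP3 and TNFAIP6, and 9.28%, with none of the genes.

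For TGFβ2 in shScramble cells, 10.7% of genes were called higher and 9.15% lower. Of the 4 genes TNFAIP6 was in the first group and PI3 in the second. IL33 was called lower too, but it passed the filter mainly through its condition A libraries. Its call and its place in the order below are therefore a description. In shCreb5 cells 15.9% were called higher, TNFAIP6 among them, and 14.5% lower, PI3 among them. The condition A and AB libraries did not overlap for 9.12% of genes in shScramble cells and 11.5% in shCreb5 cells, and of the 4 genes TNFAIP6 alone had no overlap in both. Ordered by log2 fold change in shScramble cells, IL33 was at place 4 and PI3 at place 158 from the bottom of 12879 genes, and 43.8% of genes had a change larger in size than that of MMP3.

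**Figure D3:**
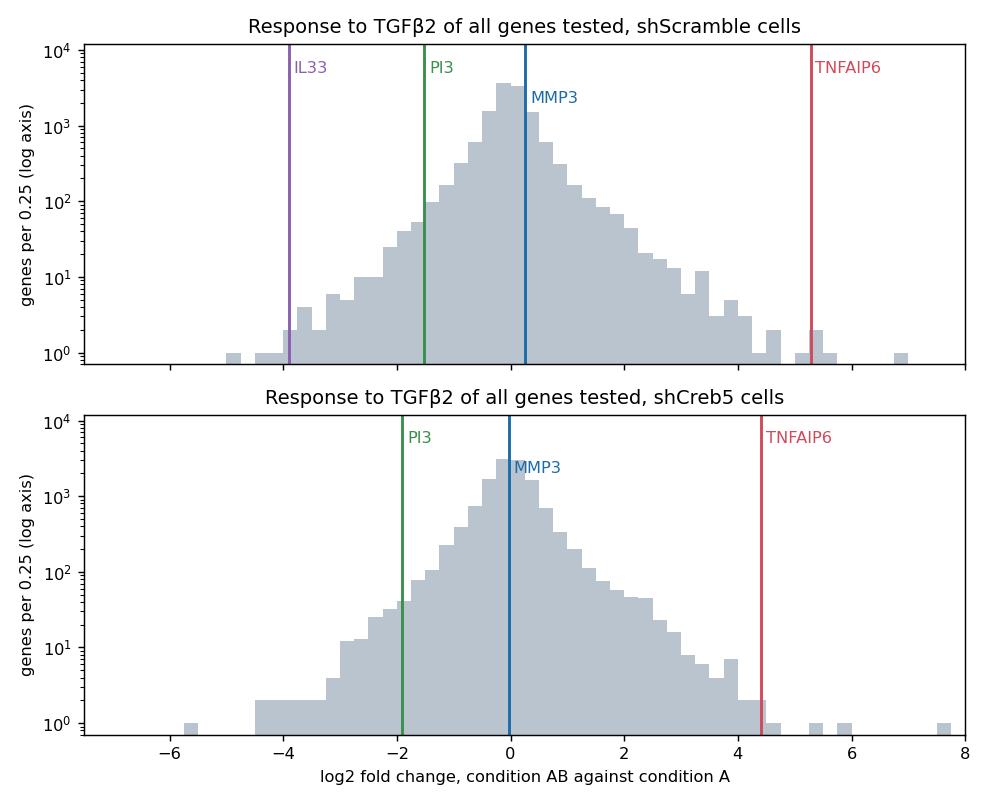
Number of genes (y axis, log scale, bins of 0.25) by log2 fold change with TGFβ2 (x axis) in shScramble cells (top) and shCreb5 cells (bottom), with the 4 genes as vertical lines. TNFAIP6 lies at 5.28 and 4.41, far to the right of most genes, PI3 at -1.52 and -1.90, MMP3 near 0, and IL33 at -3.90 in shScramble cells only, since it did not pass the filter in shCreb5 cells.

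Genes of the same pathways were read in the same TGFβ2 comparisons. The identifiers at hand come from the top of the knockdown tables, so under 80% of each list was covered and the genes that could be read favour those that changed with shCreb5. Each list is given without the 4 genes, against a median log2 fold change over all genes of -0.01 in both populations.

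Among other matrix proteases and their inhibitors, 5 of those listed were tested. In shScramble cells 2 rose, 2 fell and 1 was not called (median -0.12), and in shCreb5 cells 2 rose and 3 fell (median -0.41). The aggrecanase ADAMTS4 rose, at a log2 fold change of 2.05 in shScramble and 1.41 in shCreb5 cells (adjusted p of 0.000666 and 0.00362 by edgeR), as did MMP19 at 1.93 and 0.93 (0.0317 and 0.0137). The interstitial collagenase MMP1 fell, at -1.32 and -1.54 on the log2 scale (0.0374 and 0.0178) and the gelatinase MMP2 at -0.56 and -0.75 (0.0353 and 0.00693). In shScramble cells ADAMTS4 was higher with TGFβ2 in 4 of 4 calves, MMP19 in 3, MMP1 in 1 and MMP2 in 0. In shCreb5 cells these counts were 4, 4, 0 and 0. MMP19 ranged from 0.192 to 190.7 CPM over all libraries. MMP1 lies next to MMP3 in the order of bovine RefSeq genes, with MMP12 on the other side. Its level with shCreb5 against shScramble differed by 0.29 in condition A and 0.05 in condition AB on the log2 scale, beside -1.06 and -1.36 for MMP3.

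For hyaluronan synthesis, binding and turnover, in which TNFAIP6 acts, 6 other genes were tested. In shScramble cells 3 rose and 1 fell (median 0.28), and in shCreb5 cells 2 rose and 1 fell (median 0.40). The hyaluronan synthase HAS2 rose at a log2 fold change of 1.79 and 2.20 (adjusted p of 0.00242 and 0.00643 by edgeR) and the link protein HAPLN3 at 1.52 and 1.46 (0.000331 and 0.000282). The hyaluronan receptor CD44 rose in shScramble cells, at 0.66 (0.00525), and was at 0.35 in shCreb5 cells (0.0508). CEMIP, which takes part in hyaluronan breakdown, was at -0.16 in shScramble cells (0.562) and fell to a log2 fold change of -0.83 in shCreb5 cells (0.00252). VCAN, named after its values were seen, fell, at -0.73 in shScramble cells (0.00601), and was at -0.24 in shCreb5 cells, where it was not called (0.0666).

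Of the serine protease inhibitors other than PI3, 2 are reported, and both fell in both populations. SERPINF1, which encodes PEDF, a serpin not known to inhibit proteases, fell, at -0.82 in shScramble and -1.19 in shCreb5 cells on the log2 scale (adjusted p of 0.0227 and 0.00138 by edgeR), and the complement C1 inhibitor SERPING1 fell, at -0.44 and -0.87 (0.0409 and 0.00321). Their median was -0.63 and -1.03. SLPI, an elastase inhibitor of the same family as PI3 and its near neighbour in the genome, had no identifier at hand.

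In the interleukin-1 family, 5 genes other than IL33 were tested in shScramble cells, of which 2 rose and 1 fell (median 0.43), and 6 in shCreb5 cells, of which 4 rose and 2 fell (median 0.68). That count includes IL1RL1, the receptor for IL-33, which passed the filter only in shCreb5 cells. Its means were 0.601 CPM in both populations in condition A and 0.874 CPM (shScramble) and 2.23 CPM (shCreb5) in condition AB, so being tested depended in part on the higher level there, and its value is given as a description. Without it 3 rose, and the median was 0.65. The interleukin-18 receptor subunit IL18R1 was at a log2 fold change of 1.28 in shScramble cells (adjusted p of 0.0721 by edgeR) and rose at 1.58 in shCreb5 cells (0.00972). The interleukin-1 receptor IL1R1 rose at 0.70 and 0.65 (0.00332 and 0.00146), and the alarmin HMGB1 at 0.43 and 0.72 (0.0294 and 0.00762).

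The NF-κB and cytokine list, whose 13 genes with an identifier were all tested, went in both directions. In shScramble cells 4 rose, 3 fell and 6 were not called (median -0.16), and in shCreb5 cells 5 rose, 5 fell and 3 were not called (median 0.06). The chemokine CCL2 rose at a log2 fold change of 3.27 and 2.85 (adjusted p of 0.000173 and 0.000918 by edgeR), the cytokine LIF at 2.12 and 2.79 (0.00136 and 0.00101) and the prostaglandin synthase PTGS2 at 1.32 and 1.81 (0.0119 and 0.000498). The chemokine CCL20 fell, at -2.0 and -1.72 (0.000761 and 0.00287).

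Of the AP-1 and CREB family 3 genes were tested. CREB5 itself fell with TGFβ2, at -0.40 in shScramble and -0.82 in shCreb5 cells on the log2 scale (adjusted p of 0.0195 and 0.00360 by edgeR), and CREM was at 0.23 (0.25) and rose at 0.90 (0.00149). Of 4 TGFβ target genes read as a check of the treatment, 3 rose in each population (median 1.24 and 1.17). They were TGFBI at 3.93 and 3.77 (0.000367 and 0.00321), LTBP2 at 1.51 and 1.17 (0.00204 and 0.00539) and SKIL at 0.97 and 1.17 (0.00140 and 0.000647). CCN2 was not called in either population, at 0.093 and 0.40 (0.860 and 0.174 by edgeR).

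**Figure D4:**
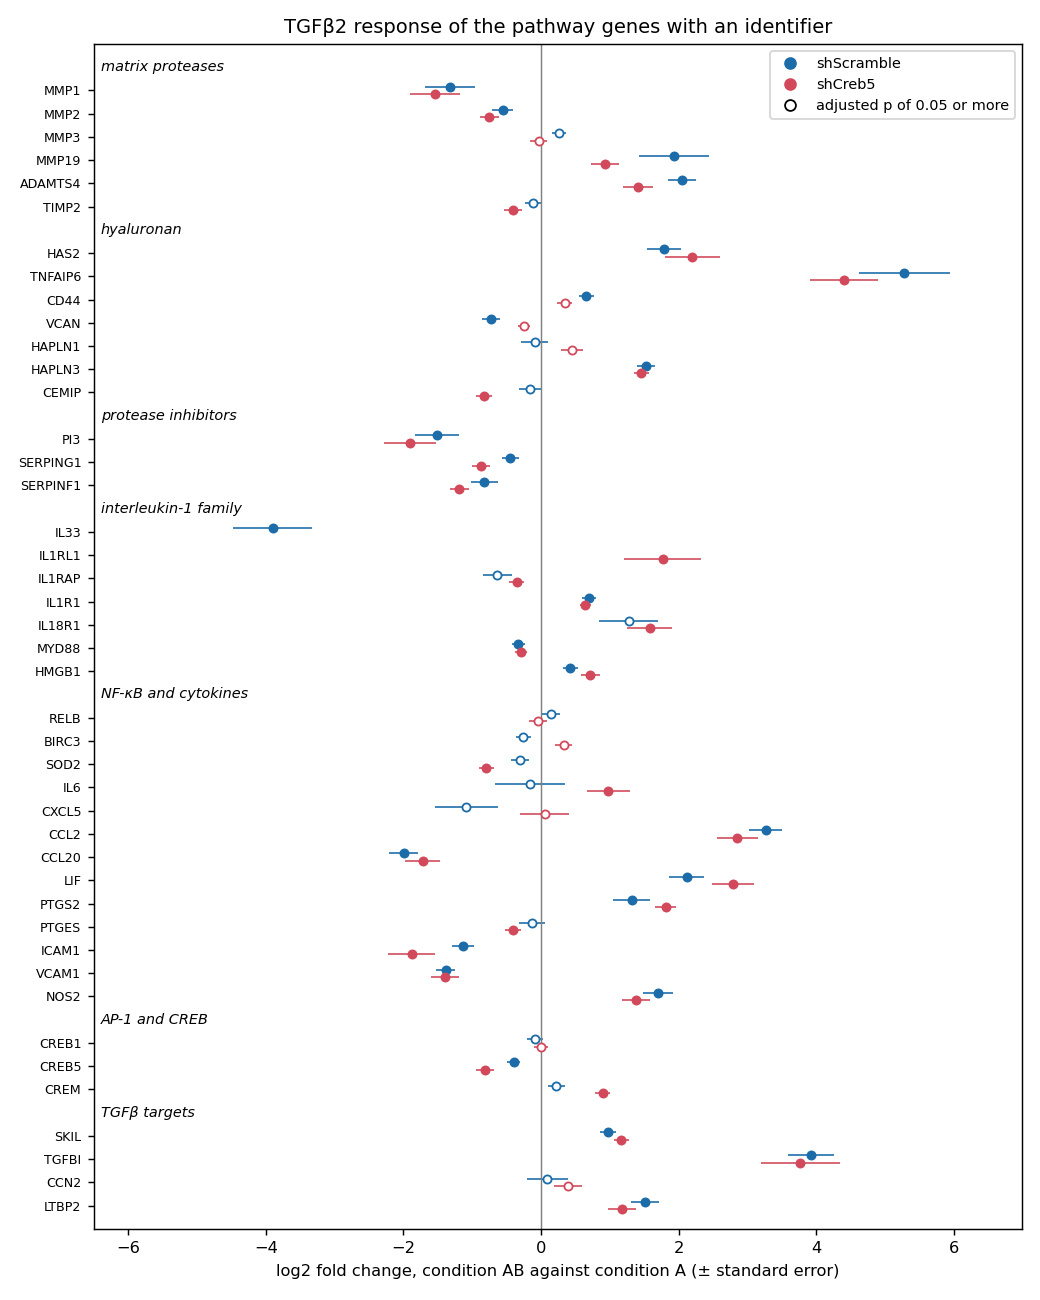
Log2 fold change with TGFβ2 (x axis, with SE bars) of each tested gene of the pathway lists (y axis) in shScramble cells (blue) and shCreb5 cells (red); filled points have an adjusted p under 0.05. TNFAIP6 lies above every other listed gene, at 5.28 and 4.41, and IL33 below every other, at -3.90, and the NF-κB and cytokine genes lie on both sides of 0.

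The genes whose pattern was most like that of each of the 4 were found by Pearson's correlation of log2 CPM over the 16 libraries, after the mean of each calf was removed, among 3113 genes with a symbol. Symbols were at hand for genes from the top of the knockdown comparisons, so these candidates favour genes that changed with shCreb5. Genes without a symbol, some of which may be more alike, were not compared. The libraries of a group share a treatment, so r is a description of likeness. For MMP3 they were PDZD2 (r = 0.87), ASAP3 (r = 0.87) and GPRC5B (r = 0.85), and for TNFAIP6 they were ROR1 (r = 0.98), PALMD (r = 0.98) and MXRA5 (r = 0.97). These genes were picked by r, so a shared order of group means follows in part from the choice. PDZD2 followed the order of MMP3, with group means of 29.0 and 41.7 CPM in shScramble cells of conditions A and AB and 15.7 and 13.4 CPM in shCreb5 cells. ASAP3 did not, at 26.7 and 29.0 CPM in shCreb5 cells of conditions A and AB, where MMP3 was at 61.2 and 58.8 CPM. MXRA5 followed the order of TNFAIP6, with 158.5 and 797.2 CPM in shScramble and 136.7 and 609.2 CPM in shCreb5 cells. For PI3 they were NBR1 (r = 0.94), MITF (r = 0.94) and HMGA1 (r = 0.93), and for IL33 they were CCDC50 (r = 0.95), GAB1 (r = 0.94) and CASP6 (r = 0.93). MITF had 17.1 and 8.79 CPM in shScramble and 26.1 and 11.7 CPM in shCreb5 cells of conditions A and AB, and CCDC50 had 39.8 and 20.9 CPM and 29.7 and 19.9 CPM.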

How the data were processed

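Poly(A) RNA of 16 cultures (4 calves, 2 shRNAs, 2 conditions) was sequenced. Reads, sequenced from a single end, were quantified by the authors with Salmon 0.14.2 in bcbio-nextgen 1.2.4 against UMD 3.1. They summed them to genes with tximport 1.14.2 and deposited the estimated counts as whole numbers, not scaled for library size. Groups and calf numbers came from the labels. Counts were used as deposited, and no library was left out.

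Genes passing filterByExpr were scaled by the TMM method and tested with edgeR 4.0.16's quasi-likelihood test in R 4.3.3, blocking on the calf, and p-values were adjusted by the Benjamini-Hochberg method over every gene in the fit. A gene was called at an adjusted p under 0.05. Comparisons used 8 libraries each, and the difference of the shRNA effects used 16. SE came from the log2 fold change and the test's F. CPM are TMM-scaled, log2 CPM used a prior count of 2, and intervals on summed counts are exact and cover counting error only, as do floors of 3 counts. Methods were tested on simulated data with the same spread around the fit for every gene, so genes with a wider spread were not covered.

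The calf is the pairing: libraries of the same calf deviated together from their group means (median r = 0.67, range 0.13 to 0.84 over 24 pairs, 13372 genes). Those of different calves had a median r of -0.23 and a range of -0.52 to 0.20 over 72 pairs, so the ranges overlapped. Taking off the mean of 4 calves in itself draws r between different calves below 0. Within each group no library was a copy of another (chi-square per degree of freedom at least 74.0 over 24 pairs). Libraries of different groups were not compared in this way. No other gene had the same counts as any of the 4 in all libraries, but MMP3 and PI3 belong to families of related genes, and division of reads among relatives was not tested.

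The 4 genes, the pathway lists and the marker lists were chosen with earlier results of these data known. Named genes were the 4, CREB5, for each list at most 4 called genes with the largest mean change in size over both TGFβ2 comparisons (VCAN was added after its values were seen), and for each of the 4 the 3 genes of highest calf-centred correlation. Symbols for 3139 genes came from the identifier columns of the tables of the knockdown comparisons, of which the top parts were at hand, and the fold changes and p-values in those tables were not used. Genomic order came from RefSeq (ARS-UCD2.0), a different build, so no coordinates are given. Sequences were not used here. A further gene of 2 pathway lists is not reported here, and the counts and medians of those lists are without it.

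Alternatives were DESeq2 1.42.0, RLE size factors, a minimum of 10 counts in every library, limma-voom (limma 3.58.1), a fit with no replicate block, each calf left out in turn, no filter on low counts, a fit over all 16 libraries together and, for the difference only, 1 block per pair of libraries.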

Additional observations from a re-analysis of the deposited data

Results flagged for a closer look

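Levels within each group of 4 calves, and log2 ratios of the calves, were examined for a calf apart from the rest. Of 36 sets examined 2 stood out, and chance would give about 1.8. MMP3 in shScramble cells of condition AB was low in calf 1, at 69.4 CPM, with a gap to the next calf of 0.885 of the group's range on the log2 scale. TNFAIP6 in the same group was low in calf 2, at 30.5 CPM, with a gap of 0.864 of the range.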

How the results depend on the processing

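Across all alternatives, 209 values kept their direction and their side of the threshold or moved by less than the spread between calves. With no replicate block, the TGFβ2 response of PI3 was -0.89 in shScramble cells (adjusted p 0.838 by edgeR) and -0.80 in shCreb5 cells (0.835). That of IL33 in shScramble cells was -3.97 (0.165). In each population 1 of the 4 genes was called, instead of 3 in shScramble cells and 2 in shCreb5 cells. The 3 include IL33, whose call is a description. The PI3 difference of shRNA effects was 0.10. The unblocked fit also called fewer genes in all, 202 instead of 2556 in shScramble and 194 instead of 3884 in shCreb5 cells, and DESeq2 called 79 and 55 genes in the knockdown comparisons of conditions A and AB, where edgeR called 0. With each calf left out in turn, the log2 fold change of MMP3 with TGFβ2 in shCreb5 cells ranged from -0.17 to 0.070. It was positive without calf 1 (0.035) and without calf 3 (0.070). The TGFβ2 response of PI3 in shCreb5 cells ranged from -2.44 to -1.61 and missed the threshold without calf 4 (-1.65). The number of the 4 genes called with TGFβ2 in shCreb5 cells was 1 to 2. The IL33 difference of shRNA effects ranged from 0.37 to 2.92. The cause was not tested. Over all alternatives the edgeR, DESeq2 or limma adjusted p ranged from 0.00124 to 0.838 for PI3 in shScramble and 0.000666 to 0.835 in shCreb5 cells, and from 1.38e-06 to 0.165 for IL33 in shScramble cells. TNFAIP6 was called with TGFβ2 under every alternative run, with adjusted p of at most 0.0163 in shScramble and 0.0201 in shCreb5 cells. IL33 in the comparisons where it did not pass the filter could not be fitted with most alternatives. Depth limits IL33 above all, which had at most 8 counts in any library with TGFβ2.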
